A study of Mus musculus with 12 samples.

Results

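The genes of the proteasome were followed through 12 RNA-seq libraries made from a pool of Purkinje cells, the large inhibitory output neurons of the cerebellar cortex. A gene was taken as a member where its Ensembl identifier maps to a protein-coding mouse symbol that starts with Psm, a letter from a to g and a digit. This gave 50 members among 43346 annotated genes, of which 42462 had a symbol and 21474 were protein-coding. By role they comprised 7 alpha subunits of the 20S core and 1 testis form, 4 beta subunits without a catalytic site, 3 constitutive and 3 immune catalytic beta subunits and 1 thymus form. The 19S particle was represented by 6 ATPases, 3 other base subunits and 8 lid subunits. The remaining members were 3 assembly factors of the base, 4 assembly factors of the core, 5 activator genes, the inhibitor gene Psmf1 and Psmc3ip. Psmc3ip met the rule by its symbol only, since its protein acts in homologous pairing at meiosis and is not part of the proteasome.

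All RNA came from 1 male mouse aged 14 months, a B6CASTF1/J animal (a cross of Castaneus and C57Bl6), and from 13 Purkinje cells that had been cut out and homogenised together. Each library was built from 1 cell-equivalent of RNA over 200 bases with spike-in RNA added, and libraries are named here by their technical replicate numbers, 1 to 6 and 8 to 13. There was no treatment, no second genotype and no control group, so genes were compared with each other within libraries. The libraries share animal, lysate and pool, so every p-value measures the technical spread between splits and nothing about differences between mice or between cells.

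The 26S proteasome degrades proteins that carry ubiquitin chains. Its 20S core is a barrel of alpha rings, which gate the entry, and beta rings, which hold the proteolytic sites, and the 19S particle on its ends binds, deubiquitinates, unfolds and feeds in the substrate. Interferon-treated and immune cells replace the constitutive catalytic subunits Psmb6, Psmb7 and Psmb5 with the immune subunits Psmb9, Psmb10 and Psmb8, which changes the peptides that are cut and favours those presented on MHC class I. Neurons depend on the proteasome for protein turnover at synapses and for the clearance of misfolded proteins.

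Levels are given as TPM, the length-scaled share of a gene among all transcripts of a library, and depth in estimated reads per gene, the deposited expected counts. Total expected counts ran from 15167444 in library 5 to 27806010 in library 10. All 10 Purkinje cell markers examined, among them Pcp2 and Calb1, had 50 or more counts in every library, with a summed level of 28066.6 ± 5629.4 TPM (SD, n = 12). Markers of other cells were present beside them. The summed level of 11 microglia markers ran from 0.0 to 490.6 TPM, with C1qc and Fcer1g at 0 everywhere. That of 8 Bergmann glia and astrocyte markers ran from 1327.8 to 3586.2 TPM. Summed markers of red blood cells, granule cells and oligodendrocytes averaged 744.1, 384.4 and 188.8 TPM over the libraries. Those of endothelial and mural cells averaged 29.64 TPM. The ratio of gene counts to spike-in counts lay between 15.34 and 19.92 in libraries 1, 4 and 13 and between 5.858 and 9.826 in the other libraries.

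The upstream stretches of 3 catalytic genes are shown, the constitutive genes Psmb5 and Psmb6 and the immune gene Psmb10. Psmb10 is the counterpart of Psmb7, so no contrast between constitutive and immune forms is read from them. Psmb5 and Psmb6 hold the core of the antioxidant response element, TGACNNNGC, to which the proteasome regulator Nfe2l1 is known to bind. They are RefSeq sequences of assembly GRCm38.p6, cut to bases that lie in no annotated exon, and capitals mark the element core. The Psmb5 stretch is chr14:54618023-54618182 on the minus strand, the Psmb6 stretch chr11:70525197-70525356 on the plus strand and the Psmb10 stretch chr8:105938445-105938604 on the minus strand.
Psmb5: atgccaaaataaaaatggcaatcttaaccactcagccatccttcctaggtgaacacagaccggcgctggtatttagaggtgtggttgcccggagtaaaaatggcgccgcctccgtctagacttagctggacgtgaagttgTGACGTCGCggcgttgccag
Psmb6: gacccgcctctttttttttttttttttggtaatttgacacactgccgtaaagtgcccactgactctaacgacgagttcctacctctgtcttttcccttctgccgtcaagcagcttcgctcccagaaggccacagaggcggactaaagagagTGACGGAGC
Psmb10: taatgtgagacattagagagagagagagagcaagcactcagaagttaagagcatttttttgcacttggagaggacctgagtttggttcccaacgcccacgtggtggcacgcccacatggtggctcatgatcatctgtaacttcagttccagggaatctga
The core started 47 bases before the transcription start of the promoter entry in Psmb5 and 9 bases before it in Psmb6. These starts are not the GENCODE M21 gene boundaries given below. The printed stretches end 28 bases before that start in Psmb5, 1 base in Psmb6 and 53 bases in Psmb10. No motif among those searched lay in the Psmb10 stretch. Across the windows from 250 bases before to 50 bases after the start, searched on both strands, the core occurred in 6 of the 42 members with an entry (14.3%), against 14.0% of 27025 genes. The interferon-type motif GAAANNGAA occurred in 7 members (16.7%), against 9.8% of all genes, and the gamma-activated motif TTCNNNGAA in 3 (7.1%), against 9.6%. The matching members for the interferon-type motif were Psmb3, Psmb4, Psmc2, Psmd4, Psmd9, Psme1 and Psmg4. Those for the gamma-activated motif were Psmb8, Psmd2 and Psmg1. The CCAAT box occurred in 35.7% of members, against 41.1% of all genes, and the sequence TATAAA in 9.5%, against 15.7%. These matches are descriptions of letters and do not show binding.

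GENCODE M21 places, on mm10, the immune genes Psmb9 (ENSMUSG00000096727.1) at chr17:34181987-34187764, Psmb10 (ENSMUSG00000031897.8) at chr8:105935735-105938444 and Psmb8 (ENSMUSG00000024338.10) at chr17:34197721-34201454. The constitutive genes are Psmb6 (ENSMUSG00000018286.6) at chr11:70525367-70527858, Psmb7 (ENSMUSG00000026750.5) at chr2:38588036-38644087 and Psmb5 (ENSMUSG00000022193.6) at chr14:54614119-54618022.

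The immune catalytic subunits were below their constitutive counterparts in every library, Psmb9 and Psmb8 at 0 and Psmb10 by a margin that varied. Psmb9, the immune form of the caspase-like site, had no count in any of the 12 libraries, while Psmb6, which forms that site in constitutive proteasomes, had 193.34 TPM at the lowest, 630.2 at the median and 1563.19 at the highest. Psmb8, the immune form of the chymotrypsin-like site, also had no count in any library, against 26.53, 210.6 and 863.46 TPM at the lowest, median and highest library for Psmb5. Both constitutive genes were therefore present in all libraries in which their immune counterparts were not seen. With 3 counts over all 12 libraries taken as the limit set by a count of 0, which is 0.0137 CPM (counts scaled to the genic total) and covers counting error only, Psmb9 was at least 37528.0-fold lower than Psmb6 and Psmb8 at least 17623.7-fold lower than Psmb5 in counts. Reads were amplified by PCR and carry no molecular identifiers, and counts are therefore not independent molecules.

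Psmb10, the immune form of the trypsin-like site, differed from these genes in that it was detected in part of the libraries. Its level was 144.5 TPM in library 12, 58.99 in library 1, 12.6 in library 3, 7.85 in library 4 and 5.14 in library 13, and 0.11 TPM or less in the other 7. Psmb7, the constitutive form of the same site, had 279.85 TPM in library 12, 174.08 in library 1, 907.51 in library 3, 170.78 in library 4 and 270.67 in library 13. Psmb7 was thus higher than Psmb10 in each library, and the smallest log2 difference, -0.95 for Psmb10 minus Psmb7, was in library 12.

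Each of the 3 immune genes was lower than its constitutive counterpart in 12 of 12 libraries. The mean within-library difference in log2(TPM + 1), immune minus constitutive, was -9.08 ± 1.02 for Psmb9 and Psmb6, -6.08 ± 2.64 for Psmb10 and Psmb7 and -7.68 ± 1.25 for Psmb8 and Psmb5 (SD, n = 12). An exact permutation test that flips the sign of each library's difference, two-sided, gave p = 0.000488 for Psmb10 and Psmb7, the smallest that 12 libraries allow, and 0.00117 after Benjamini-Hochberg adjustment over the 12 pairs of genes compared. Psmb9 and Psmb8 were at 0 throughout, which fixes every sign, so no test is read for them. Their log2 differences are set by the pseudocount of 1 TPM and are no estimate of a fold. Psmb10 reached 50 counts in 5 libraries and was at 0.11 TPM or less in the others, where its sign is fixed too. The size of its difference from Psmb7 therefore also depends on the pseudocount. It was -7.92 with a pseudocount of 0.1 TPM and -4.62 with 5 TPM. In a pool of lysed cells, fewer cells that express a gene and less of its RNA per cell cannot be told apart.

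**Figure D1:**
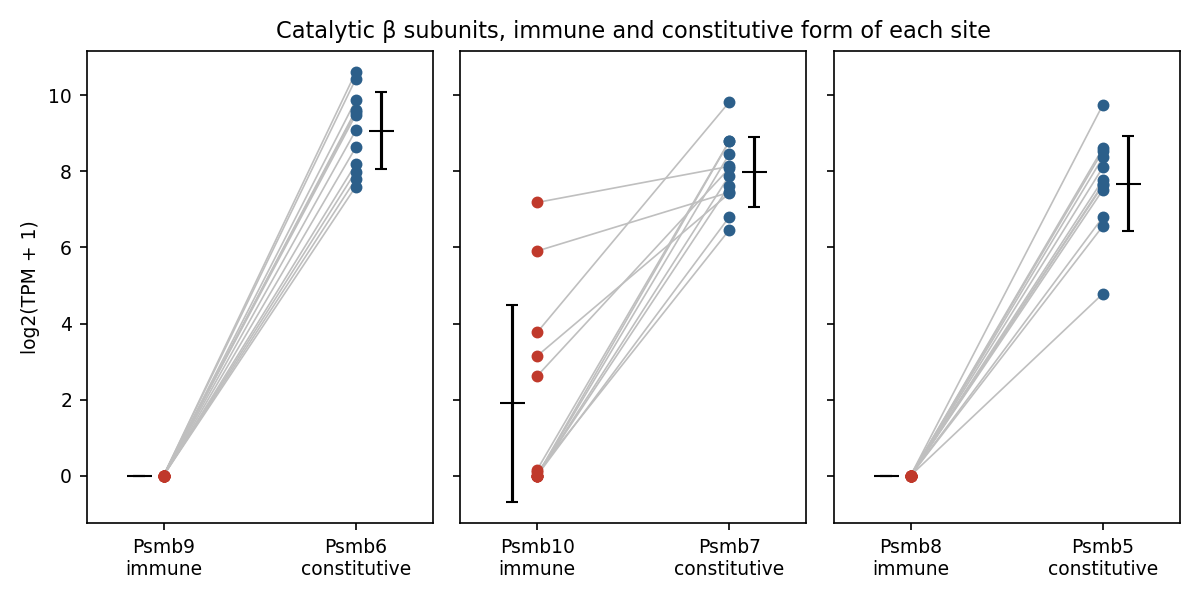
Level of the immune (left, red) and constitutive (right, blue) catalytic gene of each proteolytic site as log2(TPM + 1), with 1 point per library, a line joining the values of the same library, and bars for mean ± SD over 12 libraries. Every line rises to the right; Psmb9 and Psmb8 sit at 0 in all libraries, and Psmb10 has 5 libraries between 5.14 and 144.5 TPM.

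The microglia markers were not highest where Psmb10 was highest. Their summed level was 0.0 TPM in library 12 and 0.12 in library 1, the libraries with the most Psmb10, and 175.2, 58.69 and 154.3 TPM in libraries 3, 4 and 13. Library 8, with the highest microglia sum of 490.6 TPM, had no Psmb10 count. The part of other cell types in the Psmb10 signal was not tested.

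The forms of the core specific to other tissues were also near or at 0. Psma8, which replaces Psma7 in the testis, had no count in any library, and Psma7 was at least 23724.3-fold higher on the same limit. Psmb11, the catalytic subunit of cortical thymic epithelium, had 2 counts in all and at most 0.02 TPM. Psma8 was lower than Psma7, and Psmb11 lower than Psmb5, in 12 of 12 libraries, and with values at or next to 0 no test is read for them either.

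Genes that share sequence bear on these values, because expected counts divide the reads that fit several transcripts. Of the 50-base stretches in the GENCODE M21 transcripts of each gene, none was shared with another gene for Psmb9, Psmb10 and Psma8, and 0.228% were for Psmb8. For Psmb5 54.1% were shared, mostly with Gm3375, which was not among the genes with a value here. Psma5 shared 49.1%, of which the largest part, 33.6% of its stretches, was with Gm8394, listed at 47.0 TPM against 212.4 for Psma5, and Psme2b shared 69.3%, nearly all with Psme2. The levels of Psmb5, Psma5, Psme2 and Psme2b are therefore uncertain to that extent, and 9 members had over 10% of their stretches in common with other genes. Psmb9 also overlaps Tap1 on the other strand by 212 bases, and Psmb8 overlaps the antisense gene Gm20496. In all, 24 members overlap another annotated gene, among them Psma2, which shares 8943 bases with AW209491 on its own strand, at 17.38 TPM. Tap1 averaged 0.594 TPM and Gm20496 was listed at 0 in every library.

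Among the constitutive genes of the core, all 14 were measured in nearly every library. A count of 50 or more was reached by all 14 in 10 libraries, and by 13 in library 11, where Psma2 had 0.52 TPM, and in library 12, where Psmb2 had 2.2 TPM. Summed over the 7 alpha genes the level was 2220.5 ± 600.5 TPM, over the 4 non-catalytic beta genes 1541.2 ± 587.7 and over the 3 constitutive catalytic genes 1248.1 ± 607.8 (SD, n = 12). Mean levels of the 14 genes ran from 212.4 TPM for Psma5 to 670.2 for Psmb6, a narrower range than the swing of most of the genes between libraries.

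In the alpha ring, whose subunits form the gate and the docking surface for the 19S particle, the order of mean levels was Psma6, Psma7, Psma4, Psma2, Psma3, Psma1 and Psma5. Psma6 had 93.54 TPM at the lowest, 395.9 at the median and 850.73 at the highest, and Psma5 had 16.19, 127.7 and 808.61 TPM. Their ranges overlapped almost wholly, and Psma5 was the highest gene of the core in library 12. Psma7 was at 3.85 TPM in library 10 against a median of 368.5, and Psma4 at 12.22 in library 11 against a median of 344.0. Psma1 ran from 8.42 TPM in library 12 to 480.32 in library 9, and Psma3 from 75.78 in library 6 to 626.13 in library 12. The lowest alpha gene was thus a different gene in different libraries.

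In the beta ring, Psmb6 was the highest gene of the core in 5 libraries and among the top 3 in 6, while it lay at 193.34 TPM in library 1 and 221.83 in library 11. Psmb1, a subunit without a catalytic site, held the steadiest level of all members, with 240.67 TPM at the lowest, 420.4 at the median and 714.56 at the highest. Its coefficient of variation, the SD over the mean, was 0.304. Psmb3 ranged from 114.43 TPM in library 12 to 1249.43 in library 10, Psmb2 from 2.2 to 823.24 and Psmb4 from 42.9 to 541.38. The ranges of the 4 non-catalytic genes overlapped with each other and with those of Psmb5, Psmb6 and Psmb7.

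**Figure D2:**
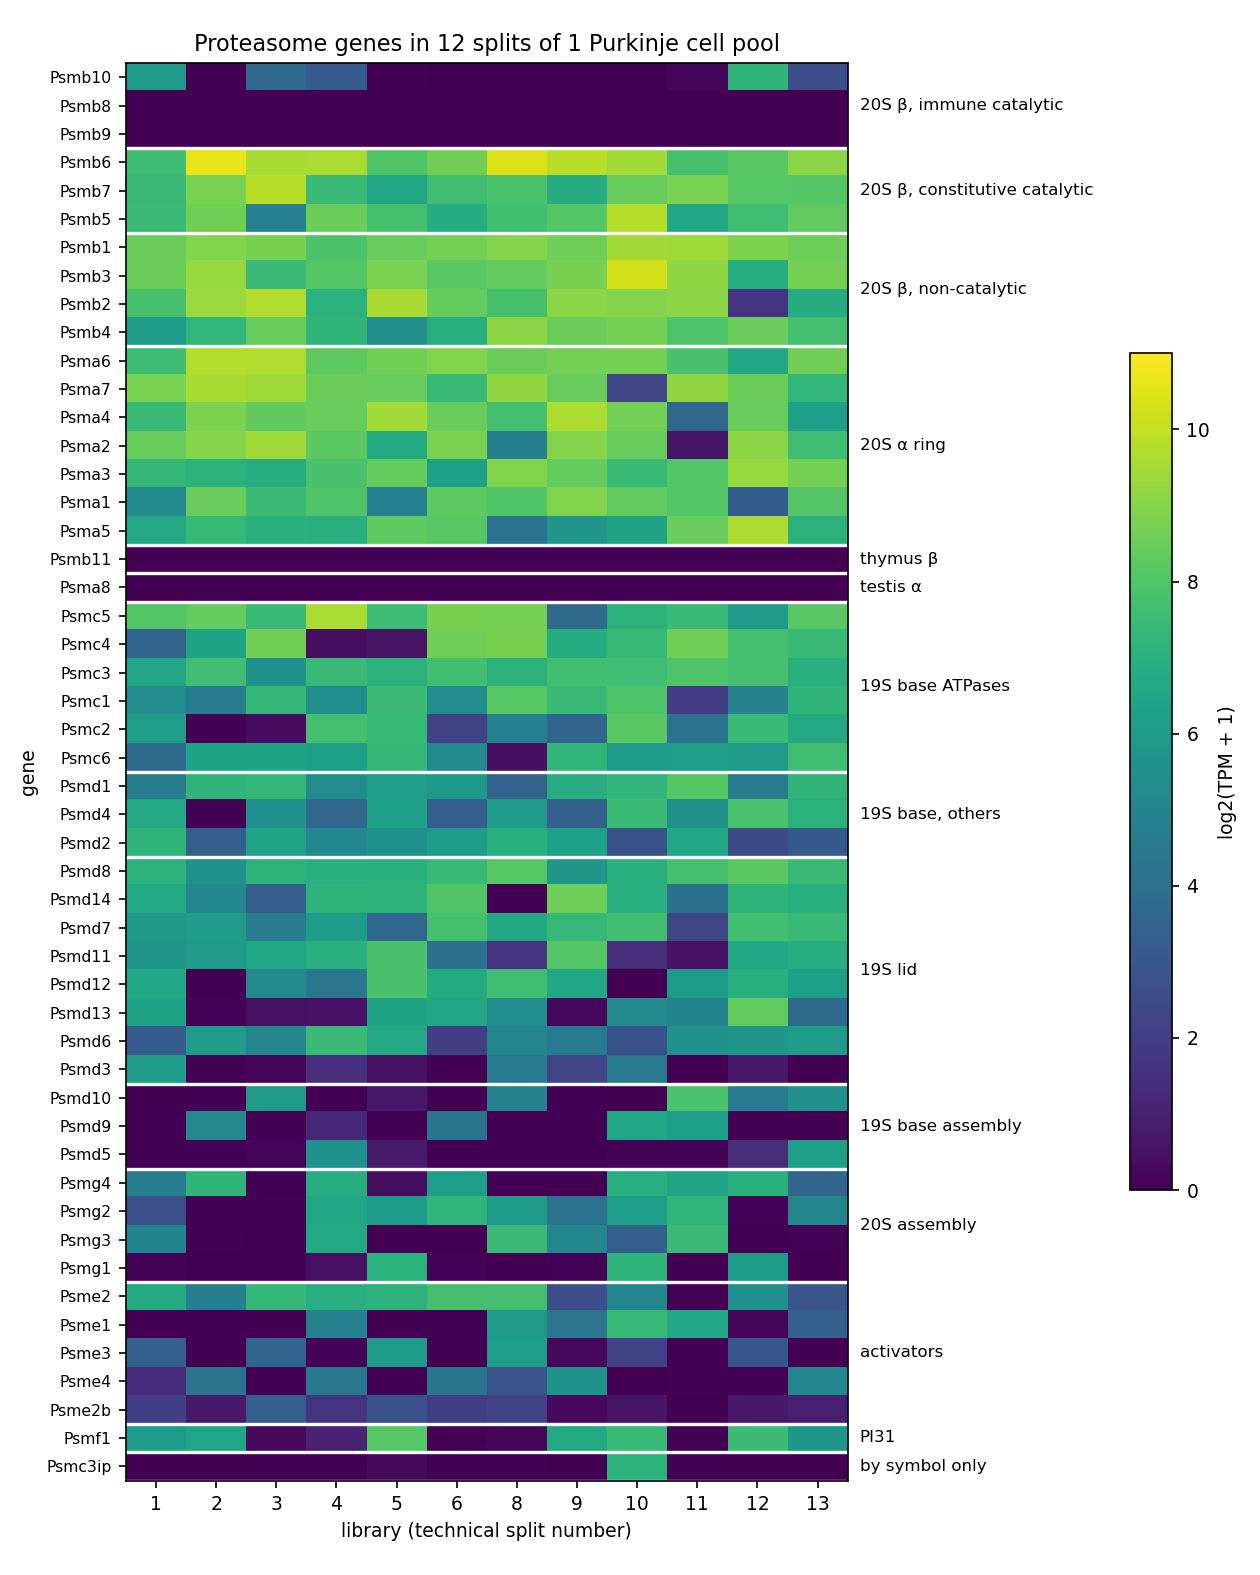
Level of all 50 members (down the page, grouped by role) in the 12 libraries (across) as log2(TPM + 1), from dark (0) to yellow. The 14 constitutive core genes are bright in nearly every library, the 3 genes without any count are dark throughout, and assembly factors and activators change from dark to bright between libraries.

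The 19S particle lay at a lower level per gene than the core. The 14 constitutive core genes summed to 5009.8 ± 1346.7 TPM and the 17 genes of the 19S particle to 1827.6 ± 340.9 (SD, n = 12). The median of the mean levels was 342.1 TPM over the core genes and 89.34 over the 19S genes. The mean level of a core gene exceeded that of a 19S gene in each of the 12 libraries, by 2.31-fold in library 6 at the lowest, 2.89-fold at the median and 7.93-fold in library 2 at the highest. Library 2 had both the highest core sum, 7530.9 TPM, and the lowest 19S sum, 1152.7 TPM.

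Of the 6 ATPases, which form the ring that unfolds substrates, Psmc5 was the highest at 271.5 ± 206.4 TPM and Psmc6 the lowest at 82.38 ± 58.60 (SD, n = 12). Psmc3 was the steadiest, with 48.49 TPM at the lowest, 182.2 at the median and 246.61 at the highest. Psmc4 reached 424.61 TPM in library 8 and was at 0.31 TPM in library 4. Psmc2 ran from 0.03 TPM in library 2 to 292.06 in library 10, and both Psmc2 and Psmc4 had 50 or more counts in 10 libraries. Psmc1 ran from 2.79 TPM in library 11 to 284.87 in library 8. The genes' ranges overlapped, and no ATPase gene was the lowest or the highest throughout.

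The remaining base subunits are Psmd1 and Psmd2, scaffolds that bind ubiquitin-like domains and cofactors, and the ubiquitin receptor Psmd4. Psmd1 averaged 100.8 ± 77.38 TPM and Psmd2 57.98 ± 47.70 (SD, n = 12). The mean log2 difference, Psmd1 minus Psmd2, was 1.00 ± 2.45 and did not pass the exact sign-flip permutation test (adjusted p = 0.245), with Psmd1 higher in 9 libraries. With CPM in place of TPM it was 0.25 (adjusted p = 0.758, exact). Total expected counts were 32698.3 for Psmd1 and 29238.7 for Psmd2, and 35.5% of the Psmd1 level was assigned to a form of 939 bases annotated as a processed transcript and 24.4% to a retained-intron form of 586 bases. Psmd4 averaged 74.30 ± 73.50 TPM and Adrm1, the other ubiquitin receptor of the base, which the symbol rule does not take, 48.79 ± 54.73. Their log2 difference was 1.22 ± 4.28, with an adjusted p of 0.404 in the same exact test. It ran from -6.99 to 7.41 between libraries, so no order of the receptors could be read from these splits. With 1 library left out the mean ranged between 0.66, without library 10, and 1.97, without library 2.

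In the lid, Psmd14, the deubiquitinase that removes the chain from the substrate, averaged 121.3 ± 110.1 TPM and its partner Psmd7 107.0 ± 80.37 (SD, n = 12). Psmd14 had no count in library 8 and 378.36 TPM in library 9. Psmd8 was the highest lid gene, with 49.39 TPM at the lowest, 136.6 at the median and 296.33 at the highest. Psmd3 was the lowest by far, at 9.748 ± 19.49 TPM, and it reached 50 counts in 5 libraries, with 65.74 TPM in library 1 at the highest. The scaffold genes Psmd11, Psmd12, Psmd13 and Psmd6 averaged between 50.29 and 88.66 TPM. Psmd13 shares 342 bases with Sirt3 on the other strand and 1194 with the pseudogene Gm15542 on its own strand, at 35.25 and 24.81 TPM, and the strand of the libraries is not given in the sources used here.

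**Figure D3:**
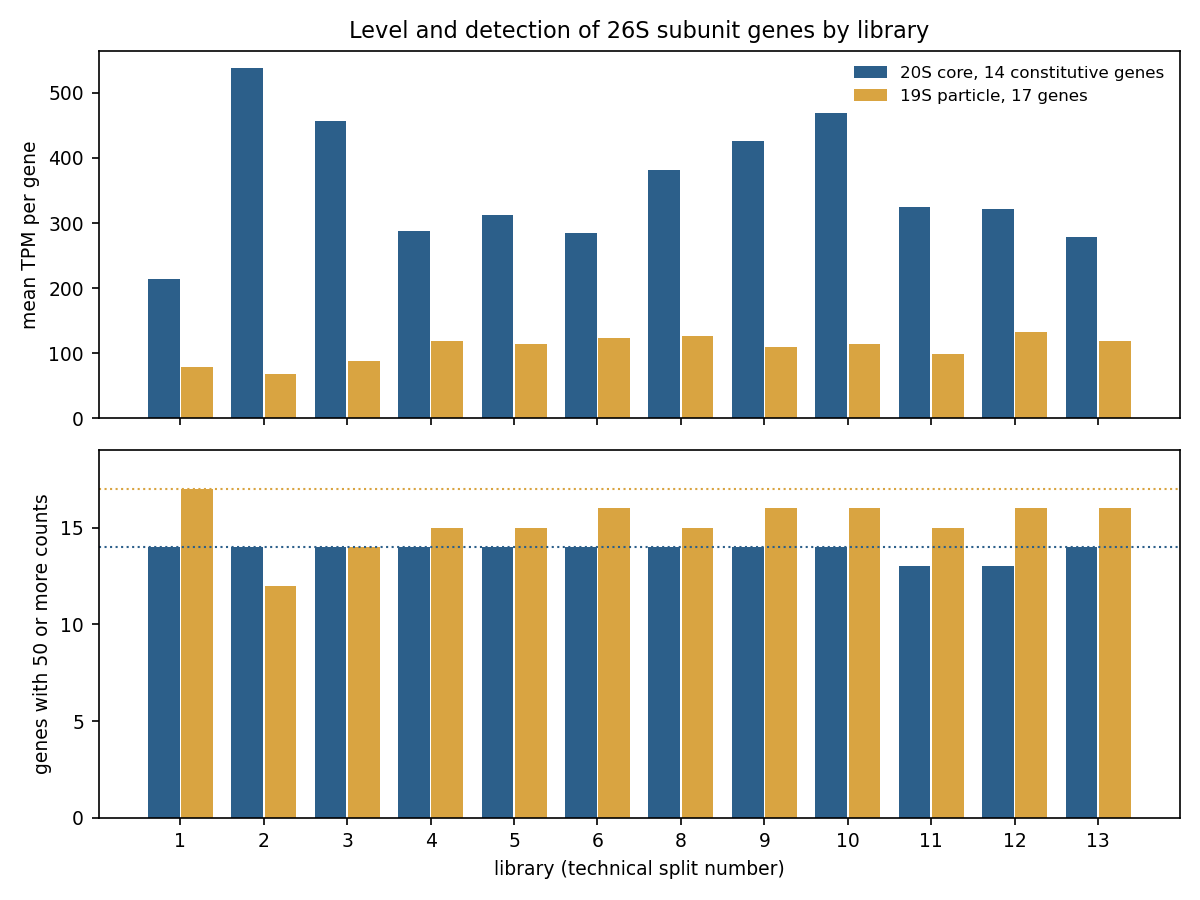
Mean TPM per gene (upper panel) and number of genes with 50 or more expected counts (lower panel, dotted lines at the possible maximum) for the 14 constitutive core genes (blue) and the 17 genes of the 19S particle (yellow) in each library. The core bar is higher than the 19S bar in all 12 libraries, most in library 2, where 12 of the 17 genes of the 19S particle reached 50 counts.

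Counted over the 14 core and 17 19S genes, an average of 29.08 of the 31 had 50 or more counts in a library, with an SD of 1.31 over the 12 libraries. The number was 26 in library 2, the lowest, and 31 in library 1. Of all 50 members, 20 had 50 or more counts in every library, 12 of them core genes and 8 of them 19S genes. In the background 14.2% of the 10523 protein-coding genes with a mean of at least 1 TPM did so. The members are more abundant than that background, with a median mean level of 89.47 TPM over the 46 members at 1 TPM or more, against 13.11 TPM. Between 100 and 1000 TPM, 18 of 22 members (81.8%) reached 50 counts everywhere, against 72.9% of 962 genes. Between 10 and 100 TPM 2 of 22 members did (9.09%), against 14.1% of 4972 genes. At matched level, the members' shares were thus near the background, and nothing particular to them is read from the count.

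The assembly factors were detected unevenly. Psmg1 and Psmg2 form the dimer that starts the alpha ring, and Psmg3 and Psmg4 a second dimer that acts with it. Psmg1 had 140.91 TPM in library 10, 130.55 in library 5 and 62.76 in library 12, and 0.4 TPM or less in the other 9. Psmg2 had 0.05 TPM at the lowest, 48.33 at the median and 149.5 at the highest, and Psmg1 was higher than it in 3 libraries. The log2 difference, Psmg1 minus Psmg2, was -2.52 ± 4.10 (adjusted p = 0.105, exact sign-flip permutation test), and without library 12 it was -3.29 with an adjusted p of 0.0218, so the outcome of the test depends on that library. Psmg3 averaged 44.54 ± 69.60 TPM and Psmg4 57.87 ± 57.82, with no difference past the test (-1.16 ± 4.56, adjusted p = 0.427, exact). With 1 library left out the Psmg3 minus Psmg4 mean ranged between -1.94, without library 8, and -0.61, without library 2. Psmg3 was at 180.22 TPM in library 11 and had no count in 3 libraries.

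For the base, the chaperones Psmd10, Psmd9 and Psmd5 averaged 32.46 ± 66.49, 18.34 ± 32.21 and 10.39 ± 24.52 TPM (SD, n = 12). Psmd10 was at 233.18 TPM in library 11 and had a median of 0.33, and Psmd9 had counts in 5 libraries and none in 7. Psmd5 reached 50 counts in 3 libraries, with its highest level of 76.26 TPM in library 13. All 3 had their median near 0 and their mean carried by a few libraries.

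Other genes of the system lay outside the symbol rule. Pomp, the maturation protein that completes the core, had 273.57 TPM at the lowest, 534.6 at the median and 892.91 at the highest. It was thus at the level of the core genes and above each of the 7 dedicated assembly factors on average. Sem1, a small lid subunit, averaged 173.1 ± 56.78 TPM, with a coefficient of variation of 0.328. Of 10 such genes measured, 4 had 50 or more counts in every library. Among all protein-coding genes, 72.9% between 100 and 1000 TPM and 14.1% between 10 and 100 TPM did so. Nothing particular to these genes is read from the count. The deubiquitinases Usp14 and Uchl5, which dock on the base, averaged 77.15 ± 57.60 and 54.76 ± 61.93 TPM, and the ubiquitin ligase Ube3c 7.723 ± 8.626. Akirin2, needed for nuclear import of proteasomes, averaged 50.90 ± 42.54 TPM. Nfe2l1, the transcription factor that drives proteasome genes when activity falls, averaged 20.15 ± 17.44 TPM, and Ngly1 and Ddi2, which deglycosylate and cleave it, 20.50 ± 30.79 and 2.950 ± 4.264 TPM.

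The activators open the core without ubiquitin or ATP. Psme2, which with Psme1 forms the interferon-inducible 11S ring, had 216.03 TPM in library 8, 76.63 at the median and none in library 11. Psme1 had 164.8 TPM in library 10 and 91.74 in library 11, 4.685 at the median and no count in 5 libraries. In library 11 Psme1 was present without a count for Psme2, and in library 6 Psme2 was at 215.58 TPM without a count for Psme1. The log2 difference, Psme1 minus Psme2, was -2.67 ± 4.63 (adjusted p = 0.112, exact sign-flip permutation test), and without library 11 it was -3.50 with an adjusted p of 0.0335. That adjustment counts the pairs fixed by values at or next to 0, which lowers it. Whether the difference would pass without those pairs was not tested. The genes lie 5911 bases apart on chromosome 14 of the mm10 assembly, on opposite strands.

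Psme3, which forms the nuclear 11S ring, had 69.33 TPM in library 8 and 65.05 in library 5, 1.75 at the median and no count in 4 libraries. Psme2 was above Psme3 in 11 libraries and tied at 0 in library 11, by 3.34 ± 2.24 on the log2(TPM + 1) scale (adjusted p = 0.00195, exact sign-flip permutation test, n = 12). In libraries 2, 4, 6, 9 and 13 Psme3 was at 0.18 TPM or less, where the sign could hardly go the other way. The p-value rests in part on those signs. Its adjustment also counts the pairs fixed by values at or next to 0, which can lower it. The size of the difference depends on the scale. It was 2.12 with CPM in place of TPM (adjusted p = 0.00977, same test), and 2.34 and 4.58 with pseudocounts of 5 and 0.1 TPM. In library 5 the order was reversed in expected counts, 1222.0 for Psme2 and 2242.0 for Psme3. For Psme1 and Psme3 the difference was 0.67 ± 4.08 (adjusted p = 0.572, exact), and it was -0.35 when CPM, which is not scaled for length, replaced TPM (adjusted p = 0.758). Leaving out 1 library gave values between 0.13, without library 11, and 1.28, without library 5. Psme4, the large PA200 activator, averaged 12.37 ± 16.26 TPM and Psmf1, known as the inhibitor PI31, 79.13 ± 92.39 (SD, n = 12). Psme2b, a gene close to Psme2 in sequence, averaged 2.507 ± 2.698 TPM. Psmf1 ran from no count in library 6 to 283.75 TPM in library 5. Psmc3ip was carried by library 10 at 135.71 TPM, where 98.9% of its level was assigned to a transcript annotated as a retained intron.

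The immune genes belong to a wider interferon and antigen presentation programme, and other genes of it were looked at. B2m and H2-D1, the light chain and a heavy chain of MHC class I, averaged 164.5 ± 142.2 and 97.27 ± 63.08 TPM (SD, n = 12). The peptide transporter gene Tap1 had counts in 1 library, at 7.13 TPM, and its partner Tap2 had none. Erap1, Irf1 and Nlrc5 had no count in any library. Psmb9, Psmb8, Tap1 and Tap2 lie side by side on chromosome 17, where Psmb9 and Psmb8 are 9956 bases apart, and of these 4 genes Tap1 was the only one with a count.

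No member stood apart from genes of similar abundance in its spread between libraries by the test used. In edgeR's quasi-likelihood fit over 13899 genes, which compares the dispersion of each gene with the trend at its abundance, 0 of 46 members tested were more variable than the trend and 0 less variable after Benjamini-Hochberg adjustment. The 4 members not tested were Psmb8, Psmb9, Psmb11 and Psma8, with mean counts under 5. Over all genes 13 (0.0935%) were called more variable and 211 (1.52%) less variable. Without adjustment 1 member had a p under 0.05 in each direction, against 115 more variable and 816 less variable genes of all 13899. The more variable member was Psmc4, at 2.61 times the trend (p = 0.0177, upper-tail F test). The less variable member was Psme2b, at 0.242 times (p = 0.00219, adjusted p = 0.117, lower-tail F test), a gene that shares most of its sequence with Psme2. The unadjusted number of more variable members was 7 with robust empirical Bayes and 4 without the filter on low counts. Psmb1 and Psmc3 lay at 0.419 and 0.430 times the trend (adjusted p = 0.916 for both). The median was 1.15 times the trend for the members and 1.05 for all genes.

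**Figure D4:**
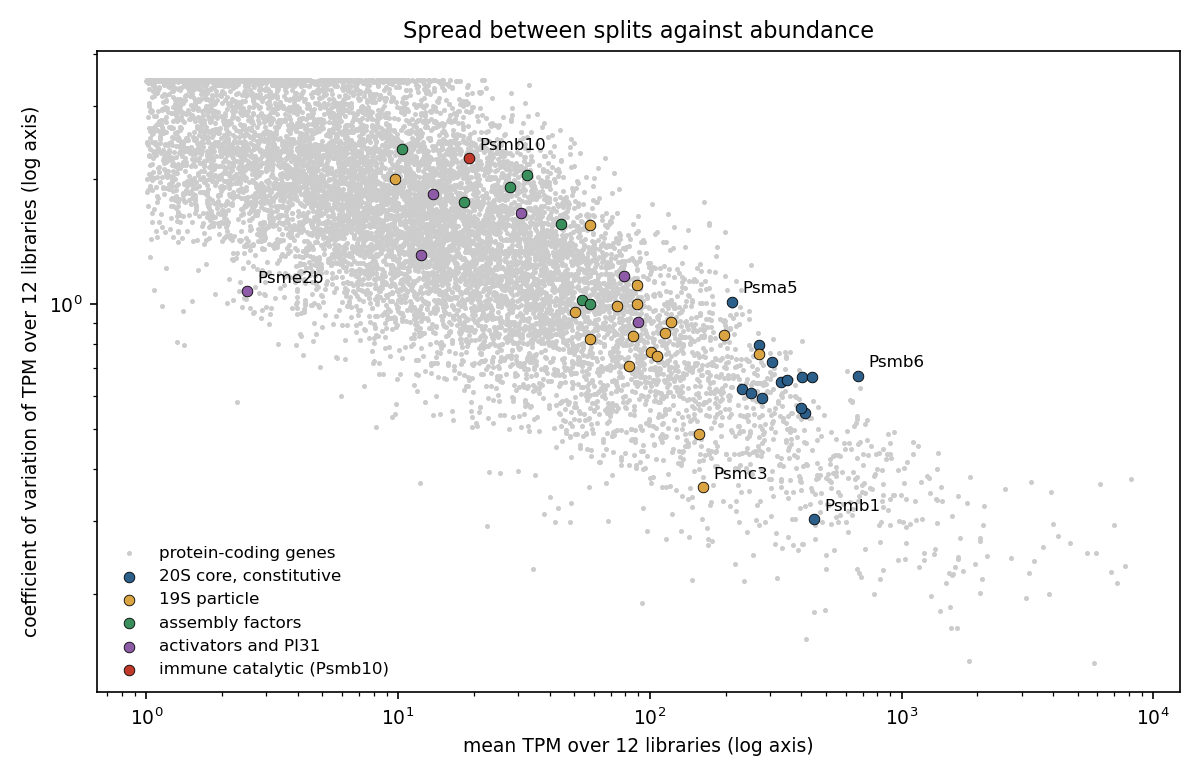
Coefficient of variation of TPM over 12 libraries against mean TPM (both axes logarithmic) for 10523 protein-coding genes with a mean of at least 1 TPM (grey) and the members among them by role (colours). Core genes (blue) lie between 0.304 for Psmb1 and 1.01 for Psma5, and Psmb10 (red) at 2.25, within the cloud of genes at its level.

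Transcript tables showed which annotated form carried the level, as far as similar isoforms can be separated by the deposited percentages. Psmb6, Psmb7, Psmb3, Psmb2, Psmc5, Psmd8 and Psmd6 were each carried to between 92.4% and 99.97% by the main protein-coding transcript. For Psmb4 a form annotated as a retained intron took 42.8% of the mean level and the coding form of 1183 bases 33.2%. For Psma3 a form annotated for nonsense-mediated decay took 47.0%, with a range from 0.0% to 88.8% between libraries. Psme1 was carried to 85.8% by a short form of 439 bases annotated for nonsense-mediated decay. TPM divides by length, so the level of Psme1 rests on the assignment of reads to that short form.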

How the data were processed

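RNA of 12 splits went through a Smart-seq protocol, per the labels' protocols, and was quantified on mm10 with GENCODE M4, per the text deposited with each sample. The aligner, counting program and strand were not given in the sources used here. Per the file headers, the gene and transcript tables hold expected counts, in which shared reads are split and which need not be whole, TPM, which the authors computed over all features with spike-ins included, and the percent of a gene's level assigned to each transcript. Symbols are those of GENCODE M21, which uses that assembly too, and promoters those of RefSeq.

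Expected counts were rounded to whole numbers for edgeR 4.0.16 (TMM factors, intercept-only glmQLFit, genes averaging 5 counts or more), and each gene's quasi-dispersion was compared with the abundance trend by upper-tail and lower-tail F tests. These F tests were tested on simulated counts with known dispersions, where they recovered part of the altered genes, so a gene without a call is not shown to follow the trend. In 12 pairs of genes, log2(TPM + 1) differences within libraries were tested by exact permutation of their signs, two-sided, with 4096 patterns. Benjamini-Hochberg adjusted p-values were read at 0.05. For the pairs, the adjustment also counted those fixed by values at or next to 0, which can lower the adjusted p-values of the other pairs. Detection means an expected count of at least 50. Total counts were 15167444 to 27806010, of which 13694551 to 24108916 were genic. The limit set by 0, 3 counts, is 0.124 to 0.219 CPM of the genic total of a library. Alternatives covered the pseudocount (0.1 and 5 TPM), CPM in place of TPM, a count filter, size factors, rescaled TPM and leaving out each library.

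All 50 members by role and every pair were described, and from other lists mainly the highest and lowest genes. The members, lists and pairs were chosen with earlier results of these data known. Psma8, Psmb1, Psmb2, Psmb7, Psmc3, Psmd3, Psmd7 and Psmg2 had no promoter entry. The printed stretches of 160 bases avoid annotated exons. Paaf1 was not analysed here, and some listed genes are not reported here.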

Additional observations from a re-analysis of the deposited data

How the results depend on the processing

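Of 284 alternative values, 275 were labelled as unchanged. Pairs had to keep their direction and their side of the threshold, and summed levels to stay within the SD of the libraries. Counts of members were allowed a fold margin, by which 29 detected members at 1 count passed as unchanged against 20. The 275 include pairs whose outcome is fixed by values at or next to 0, so the tally is no measure of robustness. Psmb10 over Psmb7 and Psme2 over Psme3 passed the test under every setting tried. In many libraries Psmb10 or Psme3 was at or next to 0, which fixes the sign there, so these passes are no separate support. The 4 other pairs with an immune, thymus or testis form kept their direction, which values at or next to 0 fix. The difference of Psme1 and Psme3 turned to -0.35 with CPM in place of TPM, which differs in the scaling for length. Leaving out each library in turn, the log2 difference of Psme1 and Psme2 ran from -3.50 to -2.20. It fell under the threshold without library 11 (adjusted p = 0.0335, exact sign-flip permutation test). That of Psmg1 and Psmg2 ran from -3.29 to -2.10 and did so without library 12 (adjusted p = 0.0218, same test). Both adjusted values are lowered by the pairs that values at or next to 0 fix. Whether they would pass without those pairs was not tested. With no filter on low counts, 1 member, Psme2b, was less variable than the trend. The summed level of the members, 7341.1 TPM as deposited, was 8956.0 when rescaled to annotated genes and 12661.1 when rescaled to nuclear protein-coding genes. All 19 core genes, immune, thymus and testis forms included, summed to 5028.8 TPM as deposited and 8658.3 TPM over nuclear protein-coding genes. The 19S particle summed to 1827.6 TPM as deposited, 2210.5 over annotated genes and 3170.4 TPM over nuclear protein-coding genes, since fewer features then share the total. The number of members at or above the limit in every library was 29 at 1 count, 24 at 5 counts, 21 at 1 TPM, and 20 to 22 with a library left out. The libraries are splits of 1 pool from 1 mouse, so no value speaks to differences between animals or cells.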

Other observations

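The shuttle factors and the unfoldase that deliver ubiquitinated proteins to the proteasome were measured beside it. Ubqln1 and Ubqln2, which carry substrates to the 19S base, averaged 45.28 ± 23.82 and 32.75 ± 16.65 TPM (SD, n = 12), with coefficients of variation of 0.526 and 0.508. Vcp, the ATPase that extracts substrates from complexes and membranes, averaged 57.16 ± 43.36 TPM. Ubqln4, related to Ubqln1 and Ubqln2, averaged 15.90 ± 16.38 TPM.

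The number of constitutive core and 19S genes with 50 or more counts can be set beside that of all genes at this depth. Library 13 had 8645 such genes and 30 of the 31 proteasome genes, library 11 had 5407 genes and 28, and library 12 had 5526 genes and 29. In libraries 1, 4 and 13, where gene counts were highest relative to spike-in counts, the core exceeded the 19S particle per gene by 2.72-fold, 2.43-fold and 2.33-fold. In the other 9 libraries the ratio ran from 2.31 in library 6 to 7.93 in library 2, so the ranges overlap. Whether the amount of RNA that entered a library moves this ratio was not tested.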
